A study of Mus musculus with 8 samples.

Results

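The 9 transcription factors with known roles in the choice and progress of the osteoblast fate, Runx2, Sp7, Dlx3, Dlx5, Dlx6, Msx1, Msx2, Twist1 and Six2, were followed through cells of mouse parietal bone. They were matched by symbol, and all 9 were among the 31053 genes counted. Single cells had been profiled by droplet-based RNA sequencing, in which each captured transcript is counted once by a unique molecular identifier (UMI) at its 3′ end. The 8 libraries came from pups of postnatal day 4 to 5 of strain B6.129(FVB)-Col1a2tm1Mcbr/J. Libraries S1, S2, S5 and S6 were wild type (WT), and S3, S4, S7 and S8 were heterozygous for G610C (Het), a change of 1 glycine of the α2 chain of type I collagen that models the brittle bone disease osteogenesis imperfecta. Cells released by collagenase from up to 5 animals with the same genotype were pooled in a library. Libraries were therefore the replicates, and whether any shared animals is not given in the sources used here. Libraries S1 to S4 were made with 3′ kit version 3 and counted with Cell Ranger 5.0.0, and S5 to S8 with kit version 3.1 and Cell Ranger 6.0.1. Kit, software release and any other difference between these sets of libraries cannot be told apart.

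Runx2, the runt-domain factor without which no osteoblast forms, and Sp7 (osterix), the zinc-finger factor that acts after it, drive mesenchymal cells into the lineage. The homeodomain factors Dlx3, Dlx5 and Dlx6 favour osteoblast maturation, and the related Msx1 and Msx2 keep skull progenitors proliferating. Twist1, a basic helix-loop-helix protein, restrains Runx2 in early skull mesenchyme, and Six2 marks mesenchymal progenitors. The comparisons below ask where each factor was expressed, how its level moved as osteoblasts raised type I collagen expression, and whether it differed between Het and WT.

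A cell was taken as an osteoblast (OB) if it held 10 or more Col1a1 UMIs together with 2 or more UMIs of each of at least 2 genes among Runx2, Sp7 and Ibsp. Of 46420 cells after quality control, 2671 were OBs, and the other 43749 served as comparison. By the share of Col1a1 in the UMIs of a cell, 379 were early (eOBs, under 0.75%), 1217 differentiating (dOBs, 0.75% to 3.5%) and 1075 mature (mOBs, over 3.5%). Runx2 and Sp7 thus helped to choose the cells, and their levels in OBs are given as description except in cells selected without them. The library depth ran from 30480239 to 85162035 UMIs, and 527 of 68094 barcodes (0.774%) occurred in at least 2 libraries. As a check on the label, Alpl was at 517 ± 159 CPM (counts-per-million, the UMIs of a gene relative to all UMIs of the same cells) in OBs and 45.0 ± 21.7 in the other cells, and Bglap at 3281 ± 3454 and 44.5 ± 29.3 (mean ± SD, n = 8). Between 18.0% and 42.7% of the OBs of a library also held at least 3 markers of another cell class, and each main comparison was repeated without them. These were haematopoietic, endothelial, mural, fibroblast or erythroid markers. Cartilage markers were not counted, so OBs holding them stayed in. The other cells differed between libraries: haematopoietic-like cells were 53.5% and 43.4% of them in WT S1 and S2 and 3.03% to 9.29% elsewhere, and cartilage-like cells 2.23% and 3.24% in S1 and S2, 15.7% to 23.5% in S3 and S4, and 42.2% to 62.5% in S5 to S8.

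The genes lie on 7 chromosomes (GRCm38, GENCODE M21). Runx2 (chr17:44495987-44814797, minus strand) spans 318.8 kb. The other 8 span 2.2 kb (Twist1) to 10.6 kb (Sp7). Dlx5 (chr6:6877805-6882085) and Dlx6 (chr6:6863334-6868568) are neighbours 9.24 kb apart, on opposite strands. Dlx6os1, an antisense gene, covers all 5235 bases of Dlx6 and none of Dlx5. Promoter windows of 250 bases before to 50 after the start were found in RefSeq (GRCm38.p6) for Runx2, Msx1, Msx2, Twist1 and Six2. They are shown where the window held a motif of these factor families, namely the RUNX core (TGTGGT, or ACCACA on the other strand) or the homeodomain core TAATTA, which reads the same on both strands. Matches are in capitals. The Runx2 window held 3 RUNX cores, the kind of site that its own product reads, against 16.8% of 32851 promoter windows with at least 1. The 250 bases before the start (chr17:44814628-44814877, minus strand) held 1 core, beginning 80 bases before it, and a short stretch after the start (chr17:44814587-44814608) held the other two, beginning at bases 24 and 32.
Runx2, before the start: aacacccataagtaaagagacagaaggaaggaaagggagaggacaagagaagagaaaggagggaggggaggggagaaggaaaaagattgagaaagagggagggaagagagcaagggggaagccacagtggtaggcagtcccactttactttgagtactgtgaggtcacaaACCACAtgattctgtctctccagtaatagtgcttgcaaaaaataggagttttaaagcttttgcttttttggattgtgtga
Runx2, after the start: aacaACCACAgaACCACAagtg
Msx2, before the start: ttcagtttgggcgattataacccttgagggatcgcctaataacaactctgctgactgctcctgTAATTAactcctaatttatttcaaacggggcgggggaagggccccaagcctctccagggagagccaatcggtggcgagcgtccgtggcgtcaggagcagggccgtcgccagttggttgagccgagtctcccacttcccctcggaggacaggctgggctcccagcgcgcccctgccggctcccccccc
The Msx2 window held 1 TAATTA, in the 250 bases shown (chr13:53472781-53473030, minus strand), beginning 187 bases before the start, against 5.3% of promoter windows with at least 1. The windows of Msx1, Twist1 and Six2 held neither motif. The starts are those of RefSeq, and the GENCODE spans of Runx2, Msx2 and Six2 begin further upstream. The matches shown before the start of Runx2 and Msx2 lie within those spans. A match describes the letters and was not tested as a binding site.

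Levels below are in CPM. Because a UMI marks a molecule and not its length, they were not divided by gene length, and levels are compared within a gene only.

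Across cell classes the members fell into different patterns. Dlx3 had its highest levels in OBs. It had 48.3 ± 27.9 CPM in mOBs, 12.0 ± 8.31 in dOBs and 7.94 ± 6.89 in eOBs. Cartilage-like cells, at 1.91 ± 1.08, were the highest of the named classes outside OBs. The other cells together, which include cells that met no class, were at 1.45 ± 0.407. Sp7 followed the same order of stages, but it helped to choose these cells, at 253 ± 30.1, 190 ± 14.0 and 138 ± 38.2, and reached 29.0 ± 8.79 in mural-like cells (smooth muscle and pericyte markers). Dlx5 and Dlx6 were shared with mesenchymal classes. Dlx5 was at 112 ± 19.5 in dOBs and at 48.7 ± 8.86 and 48.2 ± 21.9 in mural-like and fibroblast-like cells. Dlx6 was at 46.6 ± 27.9 in eOBs and at 16.3 ± 3.94 in fibroblast-like and 15.3 ± 7.6 in mural-like cells. In cartilage-like cells Dlx6 had only 0.80 ± 0.629 and Dlx5 11.7 ± 3.65, so the neighbouring genes did not share that class.

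Twist1, Msx2 and Six2 had their highest mean level outside OBs. Twist1 was at 261 ± 31.4 in fibroblast-like cells, above mOBs (215 ± 59.2) in 7 of 8 libraries. Msx2 was at 35.3 ± 2.36 in cartilage-like and 29.4 ± 11.1 in fibroblast-like cells, and at 5.71 ± 3.72 in mOBs. The order of the first pair turned with kit version: with 3 it was 34.8 ± 3.06 and 20.2 ± 4.48, and with 3.1 it was 35.7 ± 1.76 and 38.5 ± 6.54. Six2 was at 88.9 ± 28.8 in cartilage-like and 66.4 ± 48.4 in fibroblast-like cells, and at 15.1 ± 11.5 in mOBs. Msx1 was at 65.9 ± 41.7 in eOBs, 58.6 ± 24.2 in fibroblast-like and 51.4 ± 19.4 in mural-like cells. These neighbours in the order of Msx1 were not separated: eOBs were above fibroblast-like cells in 3 of 8 libraries, and fibroblast-like above mural-like cells in 4 of 8. The same held for Dlx5 in mural-like over fibroblast-like cells (5 of 8 libraries), Dlx6 in eOBs over dOBs (4 of 8), Msx2 in eOBs over dOBs (3 of 8) and Six2 in eOBs over dOBs (4 of 8).

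Endothelial-like, haematopoietic-like and erythroid-like cells were low for each of the 9 members, Runx2 at most 42.3 ± 25.8, Twist1 at most 9.32 ± 7.02 and Msx1 at most 9.14 ± 2.17. After each cell was thinned to 2000 UMIs, Dlx3 was detected in 5.32% ± 3.88 of OBs and 0.0745% ± 0.151 of haematopoietic-like cells, which should lack it. For Dlx5 the shares were 16.6% ± 2.93 and 0.787% ± 0.524, for Twist1 28.0% ± 3.84 and 1.42% ± 1.20, and for Msx2 2.26% ± 0.774 and 0.601% ± 0.474. The median depth per cell before thinning was 14170 UMIs in OBs and 6116 in haematopoietic-like cells, as medians over libraries. Shares in OBs were above this background for each of these genes, least clearly for Msx2.

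**Figure D1:**
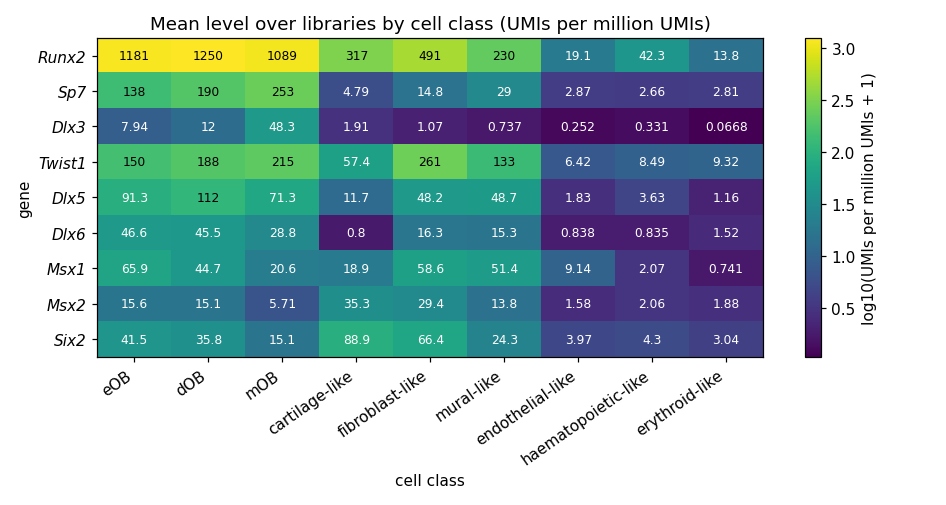
Mean level of each factor (rows) in 9 cell classes (columns), in CPM over 8 libraries (6 for erythroid-like cells), with the colour on a log10 scale. Rows are to be read one at a time: Dlx3 was highest in mOBs at 48.3, and Six2 was highest in cartilage-like cells at 88.9, as was Msx2 at 35.3, though with kit version 3.1 alone Msx2 was highest in fibroblast-like cells at 38.5.

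When OBs were set against all other cells of the same library, 5 of the 7 members not used for selection were called by edgeR's quasi-likelihood test with Benjamini-Hochberg adjustment over 16420 genes (adjusted p under 0.05). Dlx3, Dlx5, Dlx6 and Twist1 were higher in OBs, where 13.8% of all genes tested were called higher, and Msx2 was lower, where 23.8% were called lower. Fold changes in the tests are on the scale of TMM, which scales libraries so that most genes do not change. Dlx3 was at 10.1 to 60.7 CPM in OBs and 0.717 to 1.84 in the other cells, with no overlap between the ranges (log2 4.17 ± 0.47 SE over all libraries, adjusted p = 8.3e-05). The size depended on kit version: it was 5.52 ± 0.20 with 3, where 7.79% of genes were called higher, and 2.95 ± 0.17 with 3.1, where 22.7% were. Tested directly, the kit versions differed by -2.59 ± 0.23 (adjusted p = 0.0018) for Dlx3 and were not called for the other 6 members, where 7.95% of genes were called. Dlx6 was 7.55-fold higher (log2 2.92 ± 0.27, adjusted p = 2.4e-05) and Dlx5 4.93-fold higher (2.30 ± 0.21, adjusted p = 2.6e-05), each in 8 of 8 libraries. Twist1 was 2.80-fold higher (1.48 ± 0.28, adjusted p = 0.0022), also in 8 of 8, and within kit version 3 alone it was not called (1.64 ± 0.54, adjusted p = 0.075).

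Msx2, which was highest in cartilage-like cells, had 3.22 to 17.9 CPM in OBs and 3.34 to 34.0 in the other cells, and was lower in OBs in 7 of 8 libraries (log2 -0.91 ± 0.21, adjusted p = 0.0069). WT S1 was the exception, and in it and in WT S2 cartilage-like cells were fewest among the other cells. The part of that composition in the difference was not tested. Msx1 (log2 0.86 ± 0.32, adjusted p = 0.056) and Six2 (log2 -0.82 ± 0.38, adjusted p = 0.11) were not called over all libraries. With kit version 3.1 alone, Msx1 was called higher (0.93 ± 0.11, adjusted p = 0.00030) and Six2 and Msx2 lower (-1.16 ± 0.12, adjusted p = 0.00015, and -0.97 ± 0.09, adjusted p = 0.00011), where 26.8% of genes were called lower. With kit version 3, where 14.5% were, the values were 0.82 ± 0.61, -0.25 ± 0.67 and -0.72 ± 0.42 and not called. For Six2 the value without OBs holding markers of another class was -1.13 (adjusted p = 0.028), and without WT S1 it was -1.14 (adjusted p = 0.010). Msx1 was called without Het S3 (1.03, adjusted p = 0.031) and without Het S4 (1.02, adjusted p = 0.023).

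Runx2 and Sp7 were tested in cells selected on Col1a1 and Ibsp alone, a selection added after the data had been seen. There Sp7 was higher in OBs than in other cells by 3.71 ± 0.25 on the log2 scale (adjusted p = 3.5e-06) and Runx2 by 2.06 ± 0.22 (adjusted p = 5.0e-05).

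Over all 8 libraries, Twist1 rose from eOBs to mOBs, and Msx1, Msx2 and Six2 fell, Msx1 within kit version 3 but not within 3.1. These were 4 of the 6 members that were not used for selection and passed the filter on low counts in eOBs alone, where 17.7% of 11229 genes tested were called higher and 18.1% lower (edgeR, library as a block, 24 sums of cells). Dlx5 and Dlx6 were not called. Dlx3 did not pass that filter in eOBs and entered the fit through the later stages, where it was high, so its difference from eOBs is given as a description. Levels by library and stage are plotted for each member.

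**Figure D2:**
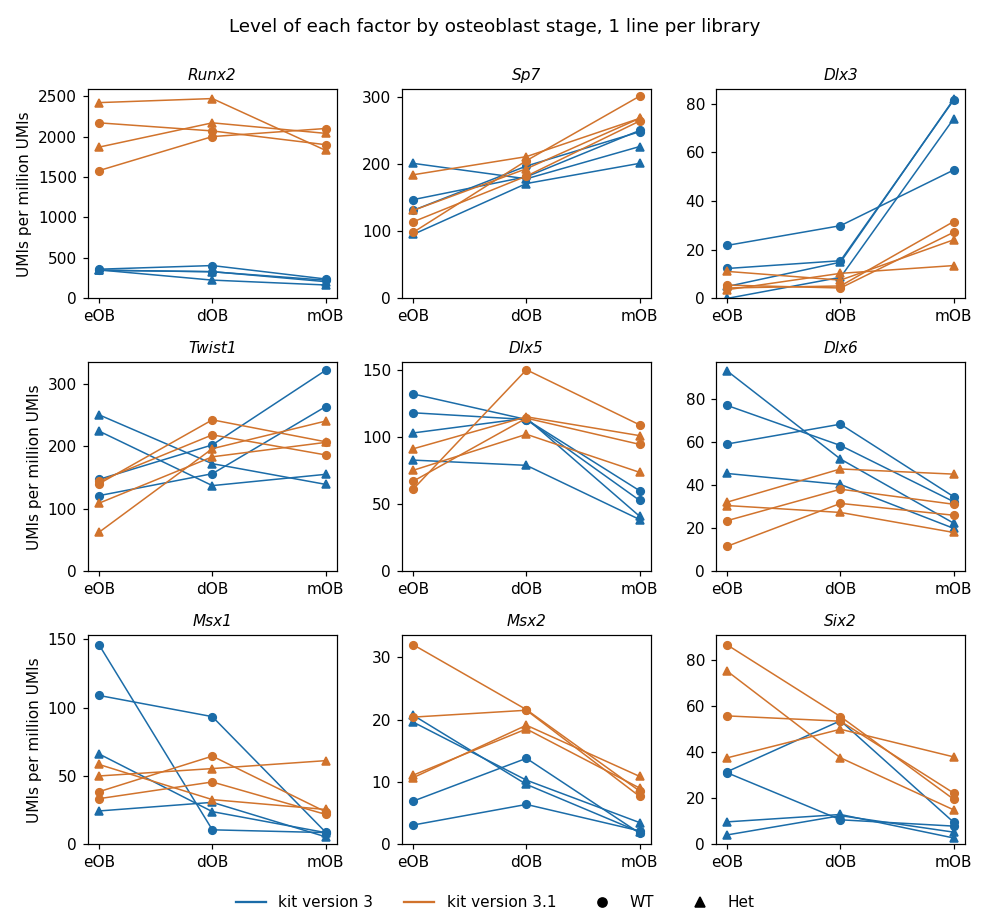
Level of each factor in CPM (y axis, from 0) in eOBs, dOBs and mOBs (x axis), with 1 line per library, coloured by kit version and marked by genotype. Dlx3 is highest in mOBs in all 8 libraries, Msx2 is lowest in mOBs in 7 of 8 against eOBs, and Runx2 separates by kit version at every stage.

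Dlx3 was higher in mOBs than in eOBs in 8 of 8 libraries. In eOBs it was at 12.3, 21.8, 0 and 4.90 CPM in S1 to S4 and at 5.46, 4.29, 3.58 and 11.1 in S5 to S8. In mOBs it was at 81.6, 52.8, 73.9 and 81.9 in S1 to S4 and at 27.2, 31.6, 13.5 and 24.1 in S5 to S8. Within each kit version eOBs and mOBs did not overlap. The eOB values rest on 0 to 16 UMIs of Dlx3 per library, and those in mOBs on 16 to 234. The estimate of the difference from eOBs was 2.98 ± 0.33 SE on the log2 scale, with no test for the reason given above. The rise from dOBs, where Dlx3 passed the filter, was 5.50-fold (2.46 ± 0.24, adjusted p = 3.8e-07). Within kit version 3 the estimate against eOBs was 3.25 ± 0.38 and within 3.1 it was 2.61 ± 0.46.

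In finer steps of Col1a1, the mean level of Dlx3 was highest in the top step in both kit versions. With kit version 3 it was 22.3 ± 12.9 CPM between 1.5% and 3.5% Col1a1, 54.0 ± 29.5 between 3.5% and 6%, and 76.1 ± 11.8 above 6% (n = 4). With kit version 3.1 the same steps had 7.42 ± 2.94, 9.51 ± 2.63 and 41.2 ± 12.1. The middle step of kit version 3 was uneven: Het S3 and S4 were at 65.8 and 85.5, while WT S1 and S2 were at 48.9 and 15.8 on 7 and 3 UMIs. These steps were not tested.

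Twist1 was at 147, 121, 224 and 250 CPM in eOBs of S1 to S4 and at 144, 140, 62.6 and 109 in those of S5 to S8. In mOBs it was at 321, 263, 155 and 139 in S1 to S4 and at 186, 207, 240 and 206 in S5 to S8. It was higher in mOBs in 6 of 8 libraries, and lower in Het S3 and S4. On the TMM scale the rise was 2.10-fold (log2 1.07 ± 0.22, adjusted p = 0.00054). It was called within kit version 3 (0.81, adjusted p = 0.039, where 13.1% of genes were called higher) and within 3.1 (1.28, adjusted p = 0.00038, where 13.8% were). On sums scaled to all UMIs it was 0.59 ± 0.22 (adjusted p = 0.023). Against dOBs Twist1 was not called (0.52 ± 0.20, adjusted p = 0.057).

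The scaling moved these values. Scaled to all UMIs, the median of all genes was -0.48 between mOBs and eOBs and -0.38 between mOBs and dOBs on the log2 scale, against -0.03 and -0.03 with TMM. A value near 0 with TMM is therefore a fall in the share of UMIs.

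Msx2 was at 6.94, 3.11, 20.7 and 19.6 CPM in eOBs of S1 to S4 and at 32.0, 20.4, 10.7 and 11.1 in S5 to S8. In mOBs it was at 1.80, 2.17, 2.0 and 3.5 and at 8.55, 7.70, 10.9 and 9.03. It was lower in mOBs than in dOBs in 8 of 8 libraries and lower than in eOBs in 7, Het S7 being the exception. The change was to 0.511 times the eOB level (log2 -0.97 ± 0.27, adjusted p = 0.0078) and to 0.457 times the dOB level (-1.13 ± 0.23, adjusted p = 0.0011). Counts were small, with 3 to 38 UMIs of Msx2 per library in mOBs. Within kit version 3 and 3.1 the differences from eOBs were -1.53 and -0.82, neither called alone (adjusted p = 0.060 and 0.058). Without WT S5 the difference from eOBs was -0.74 (adjusted p = 0.085), and with at least 3 UMIs of the selection genes it was -0.59 (adjusted p = 0.23).

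Six2 was at 31.6, 31.1, 4.14 and 9.80 in eOBs of S1 to S4 and at 86.6, 55.8, 37.6 and 75.2 CPM in S5 to S8. In mOBs it was at 9.60, 7.96, 5.33 and 2.80 and at 19.6, 22.3, 38.0 and 15.0. It was lower in mOBs than in dOBs in 8 of 8 libraries, and lower than in eOBs in 6, with Het S3 and S7 slightly higher in mOBs. The difference was -1.01 ± 0.25 against eOBs (adjusted p = 0.0029) and -0.96 ± 0.22 against dOBs (adjusted p = 0.0031) on the log2 scale. Within kit version 3 the difference from eOBs was -0.99 (adjusted p = 0.087) and within 3.1 it was -1.01 (adjusted p = 0.016).

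Msx1 was at 109, 146, 66.2 and 24.5 in eOBs of S1 to S4 and at 33.5, 38.6, 50.1 and 58.5 CPM in S5 to S8. In mOBs it was at 9.0, 8.68, 8.66 and 5.60 and at 22.0, 23.9, 61.3 and 25.6. The stages did not overlap with kit version 3 and did with 3.1. The difference was -2.83 ± 0.42 with kit version 3 (adjusted p = 0.00013, where 11.2% of genes were called lower) and -0.07 ± 0.27 with 3.1 (adjusted p = 0.89, where 14.3% were). Over all libraries it was -1.12 ± 0.39 (adjusted p = 0.030). It was no longer called when S1, S2, S3 or S4 was left out in turn, with values of -0.85, -0.79, -1.02 and -1.07 and adjusted p of 0.11, 0.080, 0.067 and 0.056. Against dOBs Msx1 was not called (-0.87 ± 0.35, adjusted p = 0.066).

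Markers of other classes had lower means in mOBs, without a test: Col2a1 was at 5236 ± 5626 CPM in eOBs and 479 ± 487 in mOBs, and Pecam1 at 87.2 ± 112.7 and 2.63 ± 1.89. When OBs with at least 3 markers of another class were left out, Msx1 was at -1.27 (adjusted p = 0.0066), Msx2 at -1.52 (adjusted p = 0.00020) and Six2 at -1.42 (adjusted p = 0.00046) between mOBs and eOBs. The falls were thus as large or larger without these cells. OBs with cartilage markers were not left out, and their part in the falls was not tested.

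Dlx5 and Dlx6 took opposite courses in the 2 kit versions. With kit version 3, Dlx5 was at 132, 118, 82.8 and 103 CPM in eOBs of S1 to S4 and at 60.0, 52.8, 38.6 and 41.0 in their mOBs. With kit version 3.1 it was at 67.1, 61.2, 91.2 and 75.2 in eOBs of S5 to S8 and at 94.5, 109, 101 and 73.7 in their mOBs. All kit version 3 libraries were lower in mOBs, and 3 of 4 kit version 3.1 libraries were higher. The log2 difference was -0.67 ± 0.15 (adjusted p = 0.0039) with kit version 3 and 0.77 ± 0.14 (adjusted p = 0.0014) with 3.1, and 0.14 ± 0.18 (adjusted p = 0.61) over all libraries.

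Dlx6 moved likewise. It was at 77.1, 59.2, 45.5 and 93.1 CPM in eOBs of S1 to S4 and at 32.4, 34.7, 20 and 22.4 in mOBs. In S5 to S8 it was at 11.7, 23.6, 32.2 and 30.6 in eOBs and at 26.1, 31.2, 45.2 and 18.1 in mOBs. The log2 difference was -0.79 ± 0.20 (adjusted p = 0.0094) with kit version 3, 0.85 ± 0.20 (adjusted p = 0.0062) with 3.1 and 0.04 ± 0.22 (adjusted p = 0.92) over all. Dlx6 and Dlx6os1 occupy the same bases on opposite strands, and the strand setting of the counting is not given in the sources used here. Dlx6os1 rested on 18 to 29 UMIs in OBs of each kit version 3 library and on 63 to 347 with kit version 3.1.

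Tested directly, the step from eOBs to mOBs differed between kit versions for Msx1 (log2 difference of differences 2.73 ± 0.51, adjusted p = 0.0024), Dlx6 (1.63 ± 0.27, adjusted p = 0.00093) and Dlx5 (1.40 ± 0.20, adjusted p = 0.00027). These were 3 of the 7 members, where 5.82% of 11663 genes were called. For Dlx3 (-0.81 ± 0.80), Twist1 (0.39 ± 0.38), Msx2 (0.77 ± 0.64) and Six2 (-0.21 ± 0.54) the difference between kit versions was not called, and the errors leave room for a difference. From dOBs to mOBs 0 of the 7 were called for such a difference by edgeR, where 0.977% of genes were, and 3 (Msx1, Dlx5 and Dlx6) had an unadjusted p under 0.05.

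Against dOBs, 3 of 7 members were called: Dlx3 higher, where 13% of genes were, and Msx2 and Six2 lower, where 13.8% were. Dlx5 and Dlx6 were lower in mOBs than in dOBs in 8 of 8 libraries in CPM, but were not called on the TMM scale (log2 -0.32 ± 0.16, adjusted p = 0.16, and -0.23 ± 0.19, adjusted p = 0.40). Within kit version 3 both were called lower (-0.68, adjusted p = 0.0018, and -0.56, adjusted p = 0.037, where 10.8% of genes were), and with 3.1 they were at -0.04 and 0.05 and not called, where 6.59% were called lower. Scaled to all UMIs they were at -0.68 (adjusted p = 0.0042) and -0.59 (adjusted p = 0.021), but this scaling called 50.7% of all genes lower.

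**Figure D3:**
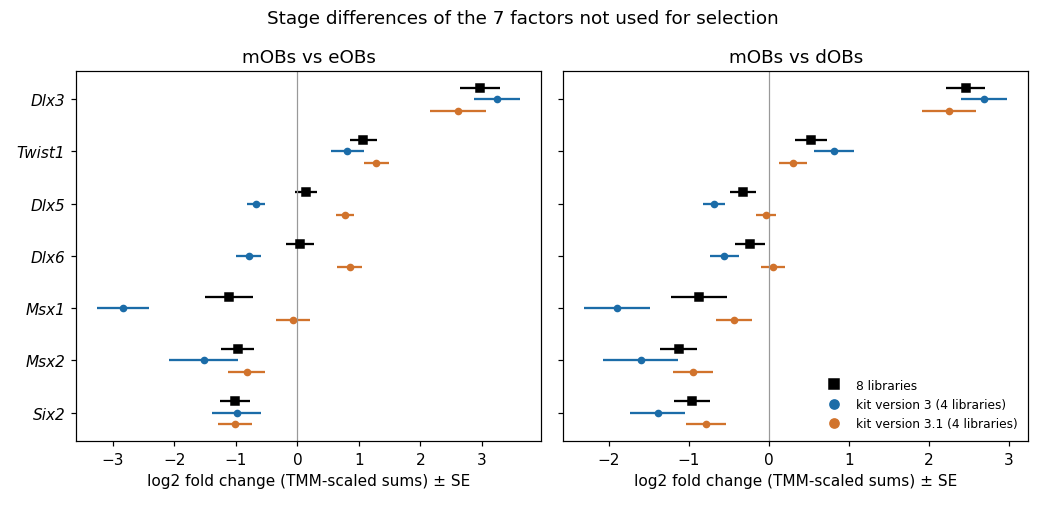
Log2 fold change on TMM-scaled sums, ± SE (x axis), of the 7 factors not used for selection, for mOBs against eOBs and against dOBs, over 8 libraries (black) and within each kit version (4 libraries each). Dlx3 is above 2 in every estimate, and Dlx5 and Dlx6 lie on opposite sides of 0 in the kit versions against eOBs.

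Among the selection genes, Sp7 went from 95.2 to 201 CPM in eOBs to 201 to 301 in mOBs, and was higher in mOBs in 8 of 8 libraries. Runx2 went from 348 to 361 in eOBs of S1 to S4 to 166 to 240 in their mOBs, and from 1580 to 2420 in eOBs of S5 to S8 to 1830 to 2100. In cells selected on Col1a1 and Ibsp alone, Sp7 rose from eOBs to mOBs by 2.21 ± 0.16 (log2, adjusted p = 2.2e-10) and Runx2 by 0.61 ± 0.12 (adjusted p = 0.00020), where 19.5% of genes were called higher. Against dOBs, Sp7 rose by 1.07 ± 0.14 (adjusted p = 5.7e-06) and Runx2 was at -0.06 ± 0.11 (adjusted p = 0.75).

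Runx2 itself was the member that differed most between kit versions. In mOBs it was at 240, 225, 166 and 207 CPM in S1 to S4 and at 2100, 1900, 2040 and 1830 in S5 to S8. The ranges of the kit versions did not overlap in any of the 9 classes, and were closest in haematopoietic-like cells (18.2 to 29.1 and 31.8 to 90.5). With genotype in the model, the estimate for Runx2 was 7.0-fold with kit version 3.1 in mOBs (log2 2.81 ± 0.13, rank 358 of 10033 genes) and 11.6-fold in the other cells (3.53 ± 0.27). Since Runx2 helped to divide the cells, these are a description with no test. The difference rose with the annotated span of the gene: its median was -0.63 for genes under 10 kb, 0.34 for 30 to 100 kb and 2.11 for the 622 genes over 200 kb, of which 54.3% were above 2. Runx2 belongs to the last class. Whether reads within introns were counted is not given in the sources used here, and the part of gene span in the difference was not tested.

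The short members did not follow their span class as a group. In mOBs 57.7% of all genes were called for kit version. Dlx3 was lower with kit version 3.1 (log2 -2.01 ± 0.22, adjusted p = 1.2e-05). Msx1 (1.72 ± 0.32, adjusted p = 0.00066), Six2 (1.58 ± 0.36, adjusted p = 0.0026), Msx2 (1.45 ± 0.31, adjusted p = 0.0016) and Dlx5 (0.56 ± 0.13, adjusted p = 0.0023) were higher. Dlx6 and Twist1 were at -0.24 ± 0.23 and -0.44 ± 0.21 and not called, and Sp7, a selection gene, was at -0.18 ± 0.11.

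**Figure D4:**
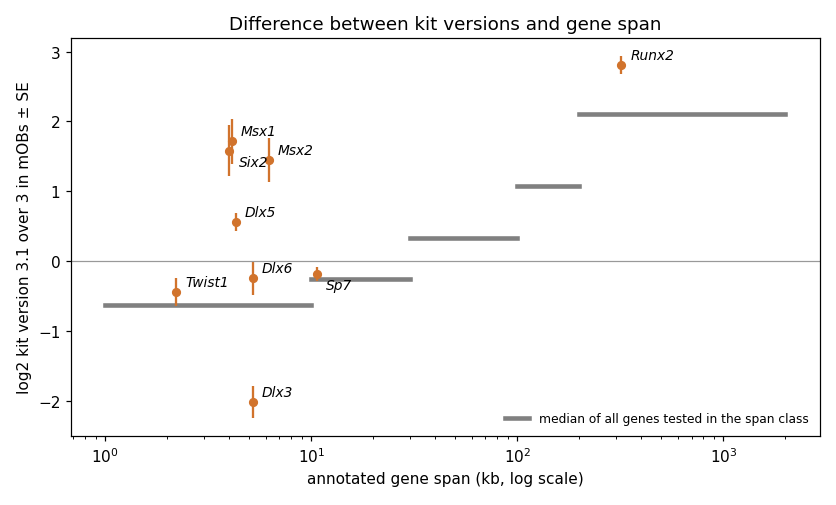
Log2 difference between kit version 3.1 and 3 in mOBs, ± SE (y axis), of the 9 factors against annotated gene span in kb (x axis, log scale), with the median of all genes in each span class as grey bars. Runx2, at 318.8 kb and 2.81, lies in the class with a median of 2.11, and the 8 shorter factors lie between -2.01 and 1.72.

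The Runx2 difference reached the selection of OBs. With kit version 3.1, 1804 of 1810 OBs (99.7%) had at least 2 UMIs of Runx2, against 736 of 861 (85.5%) with kit version 3. Ibsp passed in 41.8% and 83.7% of OBs. OBs chosen by Runx2 and Sp7 without Ibsp were 58.2% of OBs with kit version 3.1 and 16.3% with 3. The OBs of the 2 kit versions thus differed in which genes admitted them, and the part of this in the differences between kit versions was not tested. Selected on Col1a1 and Ibsp alone, Msx1, Msx2, Six2 and Twist1 were called between eOBs and mOBs, as in the OBs used above. In that selection 19.5% of genes were called higher and 20.2% lower.

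Genotypes were tested in mOBs, dOBs, eOBs and the pooled other cells. With kit version in the model, edgeR called 0 of the 7 members not used for selection in each of them. Of all genes tested, 0.518% were called in mOBs, 0.00981% in dOBs, 0% in eOBs and 0% in the other cells. In mOBs 1104 of 10033 genes and in dOBs 751 of 10190 had an unadjusted p under 0.05. In eOBs 338 genes had an unadjusted p under 0.05, and DESeq2 called 1 higher and 2 lower, and in the other cells 4335 did, and DESeq2 called 727 higher and 1246 lower. At an unadjusted p under 0.05 there were 3 of the 7 members in mOBs, 2 in dOBs, 1 in eOBs and 2 in the other cells, and DESeq2 called 0 in each. Dlx3 did not pass the filter on low counts in eOBs, so 6 of the 7 were tested there. In these 4 sets of cells the Het and the WT libraries overlapped for each member. Of genes with a mean of at least 10 CPM, 2.67% did not overlap in mOBs, 1.49% in dOBs, 1.52% in eOBs and 3.7% in the other cells. Over 10 classes with 4 libraries per genotype, 2 of 90 pairs of a member and a class did not overlap. Twist1 over all OBs was at 198 to 233 CPM in WT and 153 to 186 in Het, where 2.04% of genes did not overlap. Msx2 in cartilage-like cells was at 34.8 to 39.2 and 32.5 to 34.4, where 1.28% did not. A share of 2 in 90 is near this background, and neither was tested.

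In mOBs, 4 of the 7 members were at lower and 3 at higher estimates in Het, with a median log2 difference of -0.19, against 0.01 over all genes. Dlx5 had the smallest p. It was at 60.0, 52.8, 94.5 and 109 CPM in the WT libraries and at 38.6, 41.0, 101 and 73.7 in the Het libraries (log2 -0.38 ± 0.13, adjusted p = 0.26). Both Het libraries were below both WT libraries with kit version 3, but not with 3.1. Runx2 and Sp7 had estimates of -0.23 ± 0.12 and -0.20 ± 0.11 in mOBs, as a description. In mature cells selected on Col1a1 and Ibsp they were at -0.18 ± 0.16 and -0.21 ± 0.12 and not called (adjusted p = 0.73 and 0.58).

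Twist1 in mOBs was at 321, 263, 186 and 207 CPM in WT and at 155, 139, 240 and 206 in Het (log2 -0.46 ± 0.21, adjusted p = 0.44). Within kit version 3 the difference was -1.08 (adjusted p = 0.0022, where 2.63% of genes were called lower), and it was 0.14 (adjusted p = 0.93, where 0.00906% were) with 3.1. The difference between kit versions in this comparison was 1.19 ± 0.22 (adjusted p = 0.060), where 0.0861% of 10454 genes were called. Msx1 in mOBs was at 9.0, 8.68, 22.0 and 23.9 in WT and at 8.66, 5.60, 61.3 and 25.6 in Het (0.64 ± 0.29, adjusted p = 0.45). Het S7 alone gave it its sign, and without that library the value was -0.16 (adjusted p = 0.87). Six2 in mOBs was 0.01 ± 0.33, and -0.94 without Het S7 (adjusted p = 0.22).

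In dOBs, 6 of the 7 members had lower estimates in Het, with a median of -0.26, against -0.0039 over all genes. Six2 was at 53.7, 10.7, 55.5 and 53.5 CPM in WT and at 12.5, 13.0, 50 and 37.6 in Het (log2 -0.63 ± 0.29, adjusted p = 0.66). The WT library S2, on 5 UMIs of Six2, lay below all Het libraries, so that the groups overlapped. Twist1 was at 202, 156, 218 and 242 in WT and at 137, 172, 196 and 183 in Het (-0.27 ± 0.11, adjusted p = 0.66). Msx1 was at -0.59 ± 0.35 (adjusted p = 0.70). Without 1 library, Msx1 ranged from -1.0 to -0.12 and Six2 from -0.99 to -0.27. No member was called for a difference between kit versions in dOBs, where 0.151% of 10580 genes were.

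In eOBs the estimates ran from -0.87 ± 0.36 for Six2 (adjusted p = 1.0) to 0.35 ± 0.31 for Dlx6 (adjusted p = 1.0). The 4 members tested within kit version 3 had the other sign with 3.1, and none was called in either. Twist1 was at 0.76 ± 0.21 with kit version 3 and -0.89 ± 0.30 with 3.1, and Msx1 at -1.40 ± 0.40 and 0.48 ± 0.29. Dlx5 was at -0.48 and 0.30, and Dlx6 at -0.09 and 0.79. The difference between kit versions was not tested in eOBs. Each library had 22 to 95 eOBs, and a difference of the size of that of Six2 did not pass the adjustment at this depth.

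In the other cells the genotype difference depended on the kit version. Over all libraries the 7 members had higher estimates in Het, with a median of 0.51 against 0.03 over all genes, Msx2 being at 1.10 ± 0.42 (adjusted p = 0.18). Within kit version 3, 6 of the 7 were called higher, where 16.6% of genes were, among them Msx2 (2.15 ± 0.24, adjusted p = 0.0070), Twist1 (1.80 ± 0.27, adjusted p = 0.012) and Six2 (1.58 ± 0.22, adjusted p = 0.010). Within kit version 3.1, 5 of the 7 had lower estimates and 0 were called by edgeR (3 had an unadjusted p under 0.05), with Dlx5 at -0.72 ± 0.10 (adjusted p = 0.12) and Twist1 at -0.46 ± 0.09 (adjusted p = 0.18). The difference between kit versions was called for 6 of the 7, where 22.8% of 17548 genes were, and ran from -2.25 ± 0.31 for Twist1 (adjusted p = 0.0069) to -1.43 ± 0.29 for Six2 (adjusted p = 0.017), Dlx3 (-0.49 ± 0.37) not being called. WT S1 and S2, with the large haematopoietic-like shares given above, had the lowest level of Msx2 in other cells (5.32 and 3.34 CPM, against 21 to 34.0 in the 6 others). The part of cell composition was not tested.

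A difference between genotypes in the course from eOBs to mOBs was called by edgeR for 0 of the 7 members, where 0.0429% of genes were, and 1 (Six2) had an unadjusted p under 0.05. The errors leave room for large differences. The largest estimate of the 7 was 1.01 ± 0.46 for Six2 (adjusted p = 0.72), followed by 0.87 ± 0.55 for Msx2 (adjusted p = 0.84).

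**Figure D5:**
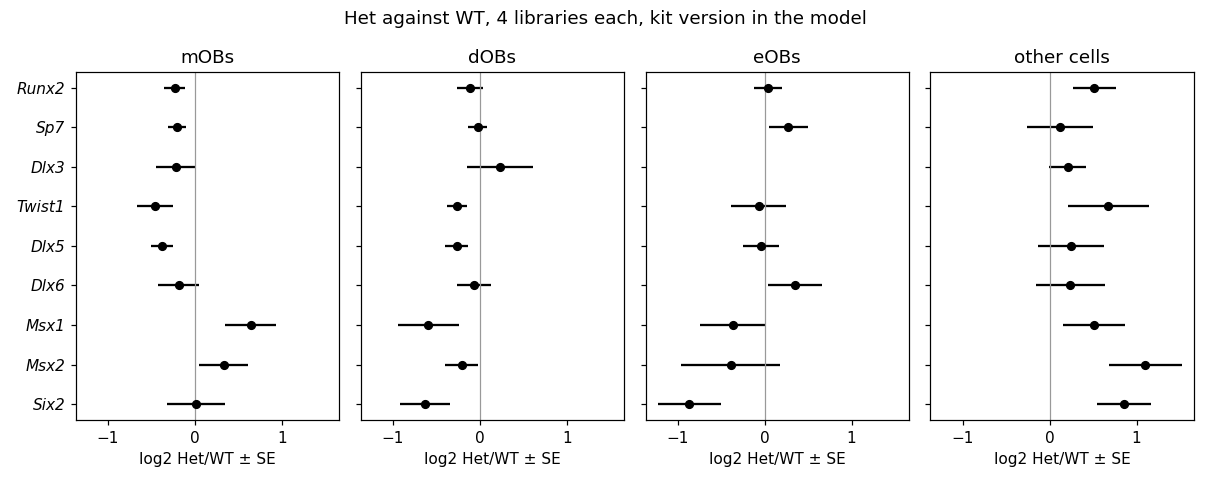
Log2 difference between Het and WT, ± SE (x axis), of the 9 factors in mOBs, dOBs, eOBs and other cells, with 4 libraries per genotype and kit version in the model. No estimate over all libraries passed an adjusted p of 0.05. All 9 are above 0 in the other cells, where within kit version 3.1 alone 5 of the 7 members not used for selection were below 0, and Dlx3 was not tested in eOBs.

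Partners and relatives of the members were read from lists, beside the same background of 17.7% of genes called higher and 18.1% lower from eOBs to mOBs. Of 12 RUNX partners tested, 4 rose and 3 fell (median log2 0.25, against -0.03 over all genes). Cbfb, the shared partner subunit of the RUNX proteins, rose by 0.53 ± 0.12 (adjusted p = 0.0016) and the deacetylase Hdac5 by 1.03 ± 0.16 (adjusted p = 3.9e-05). The related Hdac7 was lower by a log2 difference of -1.62 ± 0.25 (adjusted p = 2.8e-05), and Runx1 was at -0.50 ± 0.13 (adjusted p = 0.0057). Of 6 relatives of the DLX and MSX genes, only Dlx6os1 was tested between stages and it was not called (0.44 ± 0.20, adjusted p = 0.10).

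Twist1 rose from eOBs to mOBs, and none of its listed partners did. Of 7 tested TWIST partners and ID proteins 0 rose and 4 fell (median -0.41, edgeR). In eOBs alone 7 of the list passed the filter on low counts, and 6 in mOBs and in dOBs alone. The count of falls may thus include a gene that passed through eOBs, where it was high. Id4 was at -2.53 ± 0.34 (adjusted p = 5.7e-06), Id3 at -0.95 ± 0.12 (adjusted p = 2.4e-06), Tcf4 at -0.41 ± 0.13 (adjusted p = 0.021) and Tcf12, a dimer partner of Twist1, at -0.31 ± 0.09 (adjusted p = 0.013). Without OBs holding markers of another class, where 16.2% of 9693 genes were called higher and 14.3% lower, again 0 rose and 4 fell, but Tcf4 was at -0.12 (adjusted p = 0.50) and Id1 was called (-0.66, adjusted p = 0.026). ID proteins bind such partners and keep them from DNA.

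Among 7 Six2 relatives and EYA cofactors 3 fell, and Six4 (1.30 ± 0.24) and Six5 (1.0 ± 0.29) had higher estimates. In eOBs alone 5 of the list passed the filter on low counts. Six4 and Six5 were below the filter without OBs holding markers of another class. Their estimates are thus given as a description with no test. Eya1 (-1.25 ± 0.25, adjusted p = 0.00058) and Eya4 (-1.17 ± 0.39, adjusted p = 0.022) fell. Of 13 tested factors of skull and suture mesenchyme 0 rose and 6 fell (median -0.46). In eOBs alone 13 of the list passed the filter on low counts, and in mOBs alone 12. The count of falls may thus include a gene that passed through the earlier stages, where it was high. Foxc2 was at -2.74 ± 0.40 (adjusted p = 1.4e-05), Sox11 at -2.29 ± 0.37 (adjusted p = 5.0e-05), Sox9, the master factor of cartilage, at -2.04 ± 0.23 (adjusted p = 4.4e-07) and Foxc1 at -1.69 ± 0.18 (adjusted p = 2.1e-07). Zic1 (-0.78 ± 0.22, adjusted p = 0.0070) and Snai2 (-0.82 ± 0.21, adjusted p = 0.0044) also fell. Acan, a cartilage marker, had a mean of 409 ± 415 CPM in eOBs and 124 ± 106 in mOBs. OBs with cartilage markers were kept in the alternative that follows. Without OBs holding markers of another class, 0 of the 13 rose and 7 fell (median -0.66, against -0.02 over all genes, of which 16.2% were called higher and 14.3% lower), with Sox9 at -2.37 (adjusted p = 8.2e-07) and Foxc2 at -2.59 (adjusted p = 8.7e-05). Among Six2 relatives and EYA cofactors 5 were then tested, Six4 and Six5 being below the filter on low counts, and 0 rose and 2 fell, with Eya1 at -1.66 (adjusted p = 6.6e-05) and Eya4 at -0.03 (adjusted p = 0.98). Of the 12 RUNX partners tested in these cells 6 rose and 2 fell, beside the same 16.2% and 14.3%.

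Bone matrix genes, the known targets of Runx2 and Sp7, rose in 8 of 9 tested cases, which the staging by Col1a1 favours. Bglap (osteocalcin) rose by 6.57 ± 0.43 (adjusted p = 4.6e-10) and Ifitm5 by 5.23 ± 0.37 (adjusted p = 1.1e-09), while Mmp13 fell (-1.99 ± 0.43, adjusted p = 0.0010). Without OBs holding markers of another class 6 of the 9 rose and 1 fell (16.2% and 14.3% of all genes), and Alpl (0.40, adjusted p = 0.11) and Spp1 (0.40, adjusted p = 0.095) were not called. Between genotypes, of all list genes in mOBs only Bglap was called, lower in Het (-2.08 ± 0.40, adjusted p = 0.045).

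The genes whose level ran most like that of a member over the 70 sums of 9 classes and 8 libraries were found among 9634 genes with a mean of at least 10 CPM, by Pearson's r of log2 levels. These sums share libraries, kit versions, depth and composition, and Runx2 and Sp7 helped to define the OB classes, so r is a description. Sp7 ran most like Alpl, the alkaline phosphatase of mineralization (r = 0.95), Mlip (0.94) and Cdh2 (0.93). Dlx6 also ran most like Alpl (0.95), then Podnl1 and Mme (0.93 each). Dlx5 ran with Olfml3, Pard6g (0.95 each) and Cdh11, the osteoblast cadherin (0.94). Twist1 ran with Pcolce, which aids procollagen processing (0.96), Pdgfra, a marker used for the fibroblast-like class, and Dnm3os (0.95 each). Msx2 ran with Zic1, Zic4 (0.93 each) and Matn2 (0.92), Six2 with Tenm3, Mpped2 (0.92 each) and Sobp (0.91), and Msx1 with Osbpl5 (0.91), Arhgef40 and H2afy2 (0.90 each). Runx2 ran with Fap (0.94), Mmp16 and Pdzrn4 (0.92 each). Dlx3 was below the level needed.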

How the data were processed

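The authors deposited raw UMI counts per gene and cell, made with Cell Ranger 5.0.0 (S1 to S4) and 6.0.1 (S5 to S8) per the file headers, without normalization; the submitters' processing notes name build mm10. Of 31053 gene identifiers 30934 were in GENCODE M21. Cells with at least 500 genes and under 10% mitochondrial UMIs were kept. Doublets were not removed. In an alternative, OBs with at least 3 markers of another class, cartilage not counted, were left out. Cell classes needed at least 3 detected markers, and cartilage-like cells also over 1% Col2a1.

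Counts were summed per library and class (at least 10 cells) and tested with edgeR 4.0.16 (limma 3.58.1, R 4.3.3): filterByExpr, TMM factors and the quasi-likelihood test (glmQLFit, glmQLFTest). Comparisons of genotypes had a kit version term. The library was a block in comparisons within libraries. Benjamini-Hochberg adjustment ran over all genes tested. DESeq2 1.42.0 was an alternative. The study tested cells by Wilcoxon; cells of 1 library are not replicates. P-values measure the spread between pooled libraries. Scripts were tested on simulated data. Python 3.11.15, numpy 2.4.6, pandas 2.3.3 and scipy 1.17.1 were used.

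The members, gene lists and thresholds were chosen with earlier results of these data known. All members are named, with examples of the list genes that were called, and some of those genes are not reported here; 3 most alike genes are given per member with a mean of at least 10 CPM, from sums of at least 20000 UMIs, with 1 CPM added before the log. The scaling to all UMIs, the selection on Col1a1 and Ibsp in comparisons of stages and classes, the kit version contrasts, the interaction terms, the shares of genes without overlap and the list counts without OBs holding markers of another class were added after the data had been seen. Same-numbered libraries were not treated as pairs.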

Additional observations from a re-analysis of the deposited data

Results flagged for a closer look

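Among 72 groups of 4 libraries (9 members, 4 classes of cells, 2 genotypes) 3 held a library whose gap to the nearest other library passed the critical value of Dixon's test. Chance flags about 5% of groups, or 1 in 20. Dlx5 in dOBs of WT S6 was at 150 CPM, against 113 to 114 in the other WT libraries. Six2 in dOBs of WT S2 was at 10.7 on 5 UMIs, against 53.5 to 55.5. Dlx6 in mOBs of Het S7 was at 45.2, against 18.1 to 22.4.

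The step from eOBs to mOBs differed between kit versions 3.1 and 3 by a tested interaction for Msx1 (log2 2.73, adjusted p = 0.0024), Dlx6 (1.63, adjusted p = 0.00093) and Dlx5 (1.40, adjusted p = 0.00027) in edgeR. The kit versions also differed in Cell Ranger release and in the share of OBs chosen by Runx2 and Sp7 without Ibsp (58.2% and 16.3%). The part of either in these differences was not tested.

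The difference between Het and WT in the other cells differed between kit versions by a tested interaction for Twist1 (log2 -2.25), Msx2 (-2.06), Dlx5 (-1.92), Dlx6 (-1.85), Msx1 (-1.49) and Six2 (-1.43), with adjusted p from 0.0059 to 0.041 in edgeR, where 22.8% of genes were called. The estimates for Sp7 (-1.69) and Runx2 (-1.20), which helped to divide the cells, are a description with no test. WT S1 and S2 of kit version 3 had 53.5% and 43.4% haematopoietic-like cells, against 3.03% to 9.29% elsewhere, and its part was not tested.

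The difference of Dlx3 between OBs and other cells differed between kit versions 3.1 and 3 by a tested interaction (log2 -2.59, adjusted p = 0.0018, edgeR, where 7.95% of genes were called).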

How the results depend on the processing

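Values are members called, or log2 differences. Between mOBs and eOBs, 5 members were called (35.8% of all genes), counting Dlx3, which passed the filter on low counts through the later stages, 3 of 5 tested when cells were thinned to 2000 UMIs (22.3%; Msx1 lost the call and Msx2 was below the filter) and 4 to 5 without 1 library. Msx1 lost its call without S1, S2, S3 or S4, and Msx2 without S5 or with 3 UMIs of the selection genes. Twist1 kept its direction and call in each alternative listed here. Between mOBs and dOBs, 3 were called (26.8% of all genes), 2 of 5 tested when thinned to 2000 UMIs (15.4%), 5 without a low-count filter (14.6%), 5 without OBs holding markers of another class (25%), 6 on sums scaled to all UMIs (55.8%), 5 in cells selected on Col1a1 and Ibsp (30%), and 3 to 5 without 1 library (5 without Het S7). For OBs against other cells the count was 5, and 5 to 6 without 1 library. Between genotypes 0 members were called, except 1 in mOBs (Twist1) and 2 in dOBs (Msx1 and Six2) without a low-count filter. The share of all genes called between genotypes in that setting is not given here, so these counts have no background beside them. With the replicate number as a block, 0 members were called in each of the 4 comparisons of genotypes. Same-numbered libraries correlated by -0.142 to 0.0592 in their deviations, so they shared only a number. Scaling to all UMIs, the selection on Col1a1 and Ibsp and the within-kit values were chosen after seeing the data. The cause was not tested for any change.

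Several uncalled differences changed sign, among them Msx1 for Het against WT in mOBs, which was at 0.64 ± 0.29 over all libraries. Between mOBs and eOBs, Dlx6 was at -0.048 with DESeq2 and -0.026 in cells selected on Col1a1 and Ibsp, Dlx5 and Dlx6 were at -0.13 and -0.28 without OBs holding markers of another class and at -0.32 and -0.42 scaled to all UMIs, and without 1 library they ranged from -0.040 to 0.31 and from -0.16 to 0.25. For Het against WT in mOBs, Six2 was at -0.29 with DESeq2, -0.0015 without a low-count filter, -0.11 with the replicate block and -0.13 without the kit term, and Dlx3 at 0.12 when thinned and 0.023 without the kit term. Without 1 library, Dlx3 ranged from -0.45 to 0.052, Msx1 from -0.16 to 0.80 and Six2 from -0.94 to 0.23. In dOBs, Dlx6 was at 0.14 without OBs holding markers of another class, and Runx2 and Dlx3 at 0.071 and -0.078 without the kit term. Without 1 library, Runx2 ranged from -0.19 to 0.029, Sp7 from -0.085 to 0.028, Dlx3 from -0.25 to 0.51 and Dlx6 from -0.40 to 0.047. In eOBs, Runx2 was at -0.0044 without a low-count filter, -0.084 with 3 UMIs of the selection genes and -0.30 selected on Col1a1 and Ibsp, where Sp7 was at -0.13. Msx1 was at 0.21 with 3 UMIs, Twist1 at 0.012 when thinned and 0.21 without the kit term, and Dlx5 at 0.31 without OBs holding markers of another class and 0.016 scaled to all UMIs. Without 1 library, Runx2 ranged from -0.051 to 0.11, Dlx5 from -0.22 to 0.089 and Twist1 from -0.27 to 0.30. In the other cells, Sp7 ranged from -0.19 to 0.44, Dlx5 from -0.079 to 0.53 and Dlx6 from -0.064 to 0.57. Of all fold changes under alternatives, 772 kept direction and side of the threshold, 24 passed it, 7 no longer did and 53 changed sign. Of the levels 3 moved by more than the spread between libraries, and 51 did not. Small counts limit several members, with 0 to 16 UMIs of Dlx3 per library in eOBs, 3 to 38 of Msx2 in mOBs and 1 and 2 of Six2 in eOBs of S3 and S4.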
